A study of Homo sapiens with 6 samples.

Results

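The NKG2D and DNAM-1 stress ligands are 10 human genes whose surface proteins let natural killer (NK) cells and some T cells recognise stressed or transformed cells. They were chosen by name, as MICA, MICB, ULBP1, ULBP2, ULBP3, RAET1E, RAET1G, RAET1L, PVR and NECTIN2, and read from the probe sets whose platform annotation names exactly 1 gene. All 10 were among the 17534 genes measured, with 26 of the 47481 probe sets of the array. A further 5 probe sets named a ligand together with other genes and were kept apart. Expression had been measured on Affymetrix PrimeView arrays in MM.1R, an established human multiple myeloma line that resists glucocorticoids. There were 3 arrays of cells given epirubicin hydrochloride, an anthracycline, added to stop proliferation, and 3 arrays of cells carrying a virus with a control short hairpin (shCtrl). The labels name the virus for the shCtrl arrays alone, so drug and virus cannot be told apart by the labels. The labels give neither the dose nor how long the drug was present. Nor do they state separate cultures for the 3 arrays within a group, so each p-value rests on the spread between these samples alone, and that spread may be technical.

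NKG2D is an activating receptor of NK cells and cytotoxic T cells, and all of its ligands are distant relatives of MHC class I that present no peptide to T cells. MICA and MICB are transmembrane proteins encoded in the MHC, while the ULBP and RAET1 proteins are encoded in a separate cluster and many of them are held to the membrane by a lipid anchor. DNAM-1 (CD226) is a second activating receptor, and it binds PVR (CD155) and NECTIN2 (CD112), adhesion proteins that the inhibitory receptor TIGIT also binds. Healthy cells carry little of most NKG2D ligands, and DNA damage, heat shock and oncogenic signalling are known to raise them. In myeloma, low doses of genotoxic drugs have been described as raising ligands of both receptors on the cell surface.

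In RefSeq (GRCh38.p14) MICA lies at chr6:31400711-31415315 and MICB at chr6:31494918-31511124, both on the plus strand. The ULBP and RAET1 genes lie together on the long arm of the same chromosome, and the outermost ones are RAET1E at chr6:149883179-149898113 and ULBP3 at chr6:150061053-150069121. PVR lies at chr19:44643910-44666162 and NECTIN2 at chr19:44846297-44889223. The letters before the transcript start are shown for the 3 genes on which the results below turn, the near-duplicates MICA and MICB and, because 1 of its probe sets was higher with epirubicin, ULBP1. Each line holds the 250 bases before the start that RefSeq gives for 1 transcript, on the plus strand at chr6:31403345-31403594, chr6:31497895-31498144 and chr6:149963693-149963942. The RefSeq gene models of MICA and MICB begin further upstream, so their windows lie inside the annotated genes. Capitals mark exact motif matches. These are reference letters, not a sequence of MM.1R cells.
MICA: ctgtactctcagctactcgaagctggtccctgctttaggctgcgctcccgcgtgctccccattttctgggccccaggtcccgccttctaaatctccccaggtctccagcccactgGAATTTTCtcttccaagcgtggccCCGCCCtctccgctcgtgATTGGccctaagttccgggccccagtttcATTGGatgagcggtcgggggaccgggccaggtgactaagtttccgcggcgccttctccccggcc
MICB: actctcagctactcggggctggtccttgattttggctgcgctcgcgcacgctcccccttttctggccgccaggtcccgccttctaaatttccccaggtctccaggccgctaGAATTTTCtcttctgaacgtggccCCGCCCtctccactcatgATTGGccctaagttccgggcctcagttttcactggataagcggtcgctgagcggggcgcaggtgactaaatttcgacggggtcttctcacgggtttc
ULBP1: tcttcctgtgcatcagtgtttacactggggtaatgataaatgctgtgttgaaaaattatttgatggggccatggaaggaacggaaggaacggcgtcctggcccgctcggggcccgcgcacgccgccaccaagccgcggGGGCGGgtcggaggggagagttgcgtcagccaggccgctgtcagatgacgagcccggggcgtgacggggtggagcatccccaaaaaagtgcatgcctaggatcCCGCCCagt

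The MICA and MICB windows matched at 85.4% of 246 positions aligned without a gap. Motifs were searched on both strands of the windows of all 10 genes, 12 windows in all because RAET1E has 3 starts. A heat shock element, spelled GAANNTTC, stood in the windows of MICA and MICB as GAATTTTC and in none of the other 10, against 5.78% of 35116 RefSeq promoter windows of the same length. A CCAAT box (CCAAT) stood at 2 places in MICA and 1 in MICB. It was in 6 of the 12 windows, those of ULBP2 and RAET1G and some of RAET1E among them, and in 32.0% of all windows. A GC box (GGGCGG, 42.6% of all windows) was in 7 of the 12 windows, among them all 3 shown. The E2F site TTTCCCGC, in 1.39% of all windows, was matched in ULBP2 alone of the 10 genes. AP-1 sites (TGANTCA, 6.57%) were in RAET1L and 1 window of RAET1E, and an E-box (CACGTG, 6.34%) in another of RAET1E. The second E2F form TTTGGCGC (0.55%), the cyclic AMP response element TGACGTCA (1.65%) and the full p53 response element (0.0256%) had no match in the ligand windows. No marked matches overlapped in the windows shown. A match is a description of letters and not a bound site.

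**Figure D1:**
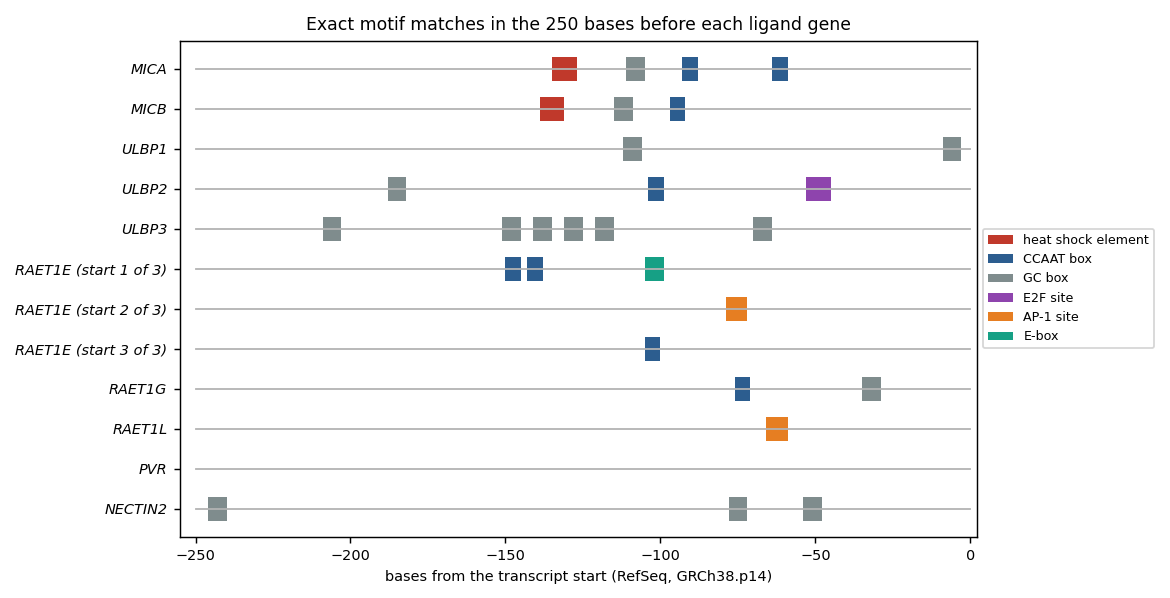
Exact motif matches in the 250 bases before the transcript start of the 10 ligand genes, with bases from the start on the horizontal axis, 1 line per RefSeq start (12 lines) and coloured boxes for motifs. The heat shock element is drawn in MICA and MICB only, and PVR has no match.

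Values below are the deposited log2 expression values. Calls of higher or lower with epirubicin required that limma's Benjamini-Hochberg adjusted p over all genes be under 0.05 and the fold change be at least 1.3, the thresholds of the series' design text, which is 0.38 on the log2 scale. Each gene is represented by its brightest probe set over the 6 arrays, and the other probe sets are given by their values or changes. Of the 10 ligand genes, 1 was called higher, MICA, and 0 were called lower, where 4.36% of all genes were called higher and 2.14% lower, 6.51% in either direction. The median log2 change of the 10 was 0.01, against 0.02 over all genes. The 3 arrays of each group lay apart in 1 of the 10 genes, against 43.8% of all genes. Fewer transcripts per cell and fewer cells that carry them cannot be told apart in bulk RNA.

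**Figure D2:**
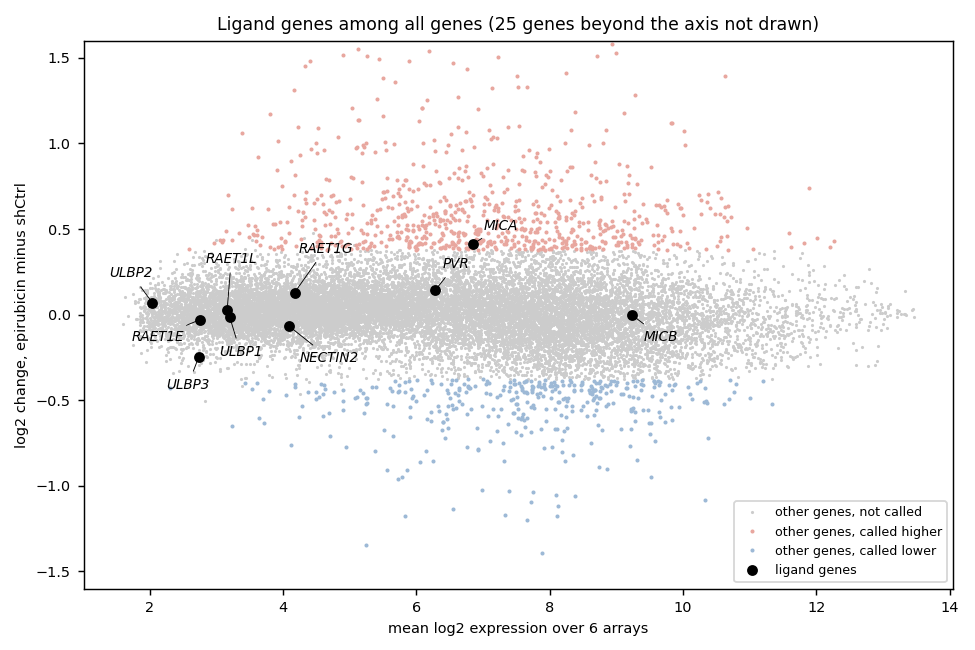
Log2 change (epirubicin minus shCtrl, vertical axis) against mean log2 expression over 6 arrays (horizontal axis) for 1 probe set per gene, with the 10 ligand genes as black points, called genes in colour and 25 genes beyond the axis left out. MICA lies at a change of 0.41, and the other 9 ligand genes lie between -0.25 and 0.14.

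MICA, a polymorphic transmembrane ligand of NKG2D, rose 1.33-fold on its brightest probe set, 11738887_s_at. The log2 values were 7.02, 7.05 and 7.10 in the epirubicin arrays, against 6.65, 6.64 and 6.64 in the shCtrl arrays. The log2 change was 0.41 (SE 0.03, 95% confidence interval (CI) 0.33 to 0.49, limma adjusted p = 0.000306). All 3 epirubicin arrays lay above all 3 shCtrl arrays, and the gap was wide beside the SDs of 0.039 with epirubicin and 0.0044 in shCtrl (n = 3 each).

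The other MICA probe sets moved the same way by less. Probe set 11738888_x_at had 6.85, 6.95 and 7.03 in epirubicin arrays, against 6.66, 6.69 and 6.82 in shCtrl arrays, a log2 change of 0.22 (adjusted p = 0.0473 in limma over all probe sets). Probe set 11763217_x_at had 6.77, 6.87 and 6.78 in epirubicin arrays, against 6.62, 6.61 and 6.67 in shCtrl arrays, a log2 change of 0.17 (adjusted p = 0.0258). The groups did not overlap on either, but neither reached the fold threshold. As the mean of its 3 probe sets MICA differed by 0.27 (limma adjusted p = 0.00199), short of the fold threshold, so the call rests on 1 of 3 probe sets. In Affymetrix naming the suffixes _s_at and _x_at mark probes that can match related transcripts, so signal from relatives of MICA cannot be told apart in these values.

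MICB, the close paralog of MICA in the MHC, was not called. Its brightest probe set, 11750723_x_at, had 9.27, 9.23 and 9.22 in epirubicin arrays, against 9.19, 9.25 and 9.28 in shCtrl arrays. The groups overlapped, and the log2 change of -0.0042 had a CI of -0.09 to 0.08, inside the fold threshold on both sides (limma adjusted p = 0.948). The other 3 MICB probe sets were all lower with epirubicin, without overlap of the groups. They averaged 7.06 ± 0.08, 7.04 ± 0.08 and 7.01 ± 0.03 in epirubicin arrays, against 7.25 ± 0.07, 7.26 ± 0.04 and 7.22 ± 0.05 in shCtrl arrays (SD, n = 3). Their log2 changes of -0.19, -0.22 and -0.20 had adjusted p of 0.0497, 0.0211 and 0.0109 in limma over all probe sets, and none reached the fold threshold. The brightest probe set thus read higher than the others and did not move with them. It and 11749539_x_at carry the suffix _x_at, so signal from relatives of MICB, MICA among them, cannot be told apart in these values either.

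MICA and MICB thus differed in direction wherever their probe sets passed the p threshold: 3 of 3 MICA probe sets were higher and 3 of 4 MICB probe sets lower at an adjusted p under 0.05 at any fold, where 11.8% and 13.3% of all probe sets were. The change of MICA exceeded that of MICB by 0.42 on the log2 scale on the brightest probe sets, both of which can match related transcripts. The within-array difference of the 2 genes had SDs of 0.062 with epirubicin and 0.050 in shCtrl, and its 3 epirubicin values lay above the 3 shCtrl values. This pair was chosen after the values were seen, so the difference is a description and no test is given.

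**Figure D3:**
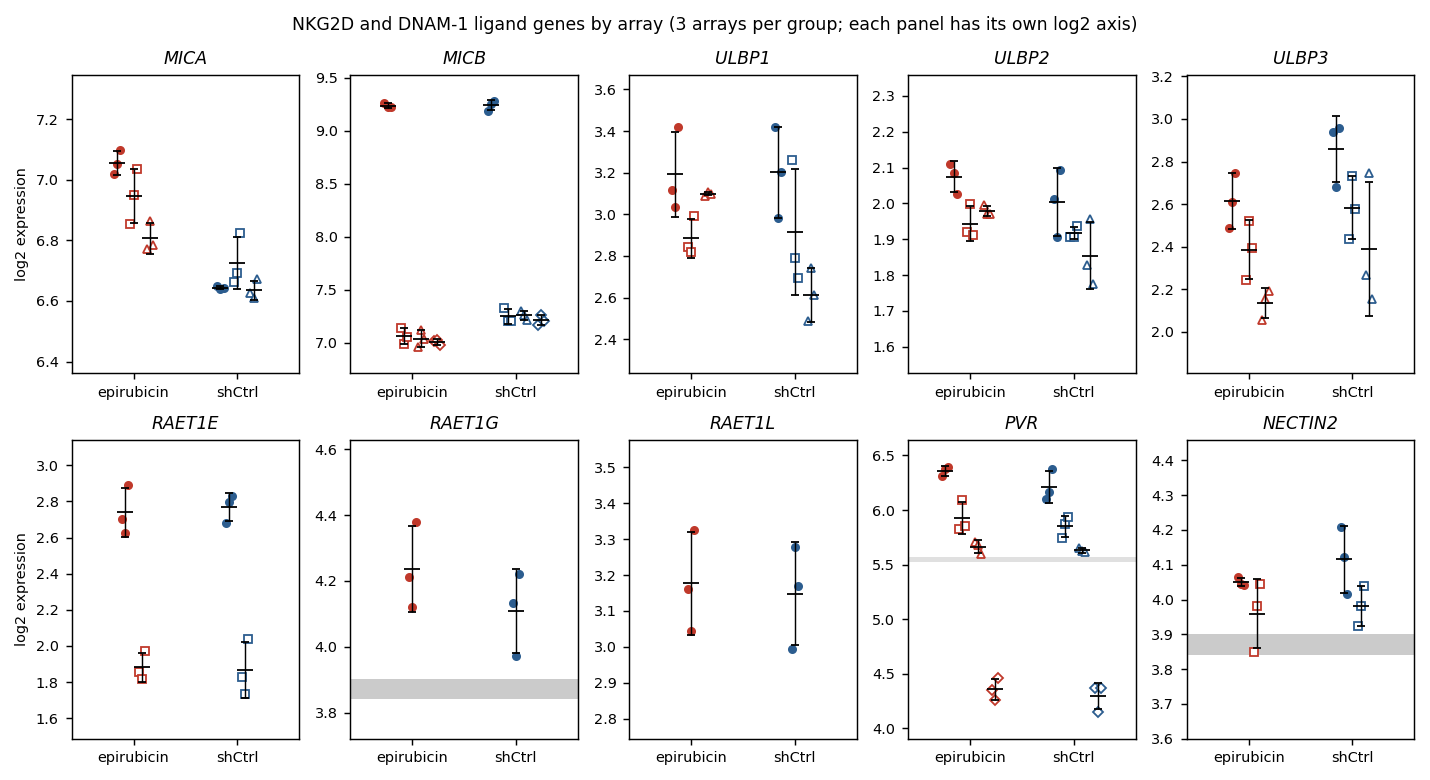
Log2 expression of every ligand probe set that names 1 gene, by array, with epirubicin (red) left of shCtrl (blue), 3 arrays per group, bars for mean ± SD, filled points for the brightest probe set and open symbols for the others, and a separate axis for each gene. Grey bands mark the arrays' lower quartile (3.84 to 3.90) and median (5.52 to 5.57) where they fall in the panel. MICA values are all higher with epirubicin on each of 3 probe sets, those of MICB all lower on 3 of 4.

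ULBP1, a lipid-anchored NKG2D ligand that has been described as a p53 target, gave different answers on its 3 probe sets. Probe set 11730619_at had 3.09, 3.11 and 3.10 in epirubicin arrays, against 2.49, 2.74 and 2.61 in shCtrl arrays. It rose 1.40-fold, by 0.49 on the log2 scale (SE 0.07, adjusted p = 0.00251 in limma over all probe sets), with no overlap of the groups. It was the second of the 26 ligand probe sets called, with MICA's, where 3.65% of all probe sets were called higher. None of the 26 was called lower, against 2.62% of all probe sets. The groups lay apart on 8 of the 26, 30.8%, against 41.2% of all probe sets.

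The other ULBP1 probe sets did not move with it. The brightest, 11730618_x_at, had 3.12, 3.04 and 3.42 in epirubicin arrays, against 3.42, 2.98 and 3.20 in shCtrl arrays, a log2 change of -0.01 (CI -0.34 to 0.32, limma adjusted p = 0.963). The remaining one, 11730617_at, averaged 2.88 ± 0.09 in epirubicin arrays and 2.92 ± 0.30 in shCtrl arrays (SD, n = 3). On all 3 the values of every array lay under that array's lower quartile, a range in which unspecific signal can make up much of a value. No detection calls were used here, so ULBP1 was called on 1 of 3 dim probe sets and not on the others.

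The other members of the ULBP and RAET1 cluster were not called on any of their 10 probe sets. ULBP2, also described as a p53 target, had 2.11, 2.09 and 2.03 in epirubicin arrays, against 2.01, 1.91 and 2.09 in shCtrl arrays, with overlapping groups and a log2 change of 0.07 (CI -0.06 to 0.20). Its other probe sets differed by 0.03, with overlap, and by 0.13 on 11726552_x_at, where all 3 epirubicin arrays lay above the shCtrl arrays (adjusted p = 0.142 in limma over all probe sets). ULBP3 had 2.49, 2.61 and 2.75 in epirubicin arrays, against 2.94, 2.68 and 2.96 in shCtrl arrays. Its log2 change of -0.25 (CI -0.47 to -0.02, limma adjusted p = 0.107) missed the p threshold, and its other probe sets lay at -0.20 and -0.26. It passed the p threshold, but not the fold threshold, as the mean of its probe sets (-0.23, limma adjusted p = 0.0383) and without shCtrl replicate 2 (-0.33, limma adjusted p = 0.0352). ULBP3 was the only uncalled ligand gene whose CI extended past the fold threshold.

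RAET1E, which encodes the transmembrane ligand ULBP4, had 2.70, 2.62 and 2.89 in epirubicin arrays, against 2.68, 2.80 and 2.83 in shCtrl arrays (log2 change -0.03, CI -0.21 to 0.15), and differed by 0.01 on its other probe set. RAET1L, which encodes ULBP6, had 3.16, 3.04 and 3.33 in epirubicin arrays, against 2.99, 3.28 and 3.17 in shCtrl arrays (log2 change 0.03, CI -0.20 to 0.26). RAET1G, which encodes ULBP5, had 4.21, 4.12 and 4.38 in epirubicin arrays, against 4.13, 3.97 and 4.22 in shCtrl arrays (log2 change 0.13, CI -0.08 to 0.34). The groups overlapped for all 3 genes, each on its brightest probe set. Of the 13 probe sets of the cluster's 6 genes, 12 lay under the lower quartile on every array, RAET1G being the exception, and the SD between arrays of a group reached 0.31.

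The 5 probe sets that name several ligands also gave no call. Probe set 11743218_s_at, shared by ULBP3, ULBP1 and the pseudogene RAET1K, had 4.82, 4.81 and 4.83 in epirubicin arrays, against 4.71, 4.46 and 4.78 in shCtrl arrays. It was the only one of the 5 without overlap, at a log2 change of 0.17 (adjusted p = 0.187 in limma over all probe sets). The other 4, shared by ULBP2 and RAET1L with or without RAET1G, changed by -0.0045 to 0.17.

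**Figure D4:**
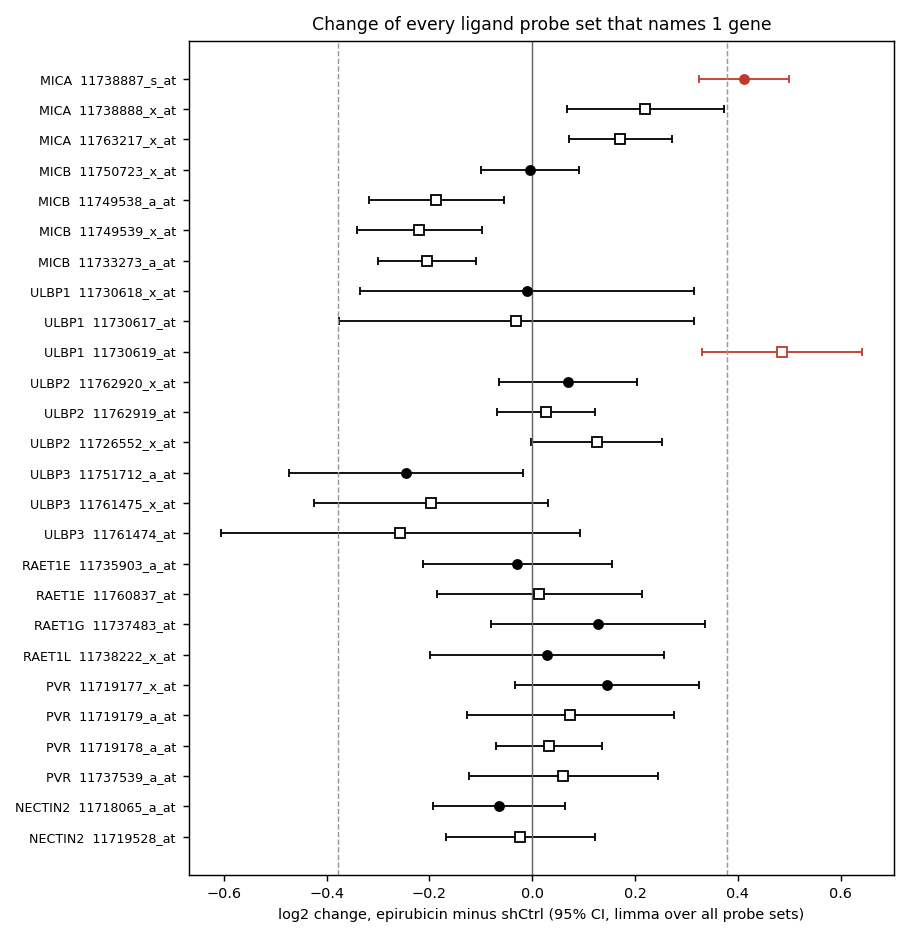
Log2 change (epirubicin minus shCtrl, horizontal axis) with its 95% CI from limma for the 26 ligand probe sets, filled circles for each gene's brightest probe set, open squares for the others, red for called higher and dashed lines at a fold of 1.3. The 2 called probe sets are 11738887_s_at of MICA at 0.41 and 11730619_at of ULBP1 at 0.49. The other probe sets of MICA lie at 0.22 and 0.17, the first with a CI that overlaps that of the called one, and those of ULBP1 at -0.01 and -0.03.

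PVR, which DNAM-1 binds more tightly than NECTIN2, was not called. Its brightest probe set had 6.31, 6.37 and 6.39 in epirubicin arrays, against 6.10, 6.17 and 6.38 in shCtrl arrays. The log2 change was 0.14 (SE 0.07, CI -0.03 to 0.32, limma adjusted p = 0.205), and a single shCtrl array, replicate 3, overlapped the epirubicin arrays. Without that array the change was 0.23 (limma adjusted p = 0.0215), still short of the fold threshold, and without shCtrl replicate 1 it was 0.087. All 4 of its probe sets changed by less than the fold threshold, by 0.03 to 0.14.

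NECTIN2, the second DNAM-1 ligand and an adhesion protein of cell junctions, had 4.06, 4.05 and 4.04 in epirubicin arrays, against 4.21, 4.12 and 4.02 in shCtrl arrays. The groups overlapped, with a log2 change of -0.07 (CI -0.19 to 0.06, limma adjusted p = 0.414). Its other probe set changed by -0.02. Of the 9 ligand genes not called, 8 had a CI inside the fold threshold on both sides, PVR and NECTIN2 among them.

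Other nectins were examined beside these ligands. Of 8 measured nectin and nectin-like relatives, 3 were higher with epirubicin and 0 lower, against 4.36% and 2.14% of all genes. Their median log2 change was 0.15, and that of all genes 0.02. NECTIN3, an adhesion partner of PVR, NECTIN1 and NECTIN2, had 8.52, 8.60 and 8.58 in epirubicin arrays, against 7.82, 7.78 and 7.73 in shCtrl arrays, a 1.73-fold increase on the brightest of 2 called probe sets (limma adjusted p = 5.59e-05). NECTIN1, a receptor of herpes simplex virus, had 9.71, 9.73 and 9.74 in epirubicin arrays, against 9.24, 9.16 and 9.16 in shCtrl arrays, a 1.45-fold increase (limma adjusted p = 0.000133). Of its 4 probe sets 2 were called, and the mean change of 0.36 over all 4 was short of the fold threshold.

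NECTIN4, which TIGIT can bind, had 5.51, 5.41 and 5.32 in epirubicin arrays, against 4.91, 5.09 and 4.96 in shCtrl arrays (1.34-fold, limma adjusted p = 0.00425). Without epirubicin replicate 1 its change of 0.37 was short of the fold threshold. On a dimmer probe set, 11728764_a_at, NECTIN4 had 4.38, 4.39 and 4.30 in epirubicin arrays, against 2.72, 2.38 and 2.46 in shCtrl arrays, a log2 change of 1.84. Those shCtrl values lie under the arrays' lower quartile and were not shown to be above background, so the size of that change is uncertain. The changes of NECTIN3, NECTIN1 and NECTIN4 lay 0.85, 0.61 and 0.49 above that of NECTIN2 on the log2 scale. These 3 were set beside NECTIN2 because they had been called higher, so the differences are a description and no test is given.

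Of 12 measured ligands of other activating NK receptors, 3 were higher and 0 lower, against 4.36% and 2.14% of all genes, with a median log2 change of 0.16. CLEC2B, the ligand AICL of the receptor NKp80, rose 1.74-fold, with 7.01, 7.06 and 7.01 in epirubicin arrays, against 6.23, 6.25 and 6.19 in shCtrl arrays (limma adjusted p = 3.45e-05). It was called on 1 of 2 probe sets. ICAM1, a ligand of the integrin LFA-1, rose 1.45-fold, with 7.78, 7.92 and 7.83 in epirubicin arrays, against 7.31, 7.26 and 7.34 in shCtrl arrays (2 of 3 probe sets). CD58, a ligand of CD2, lay on the fold threshold at 1.30-fold with 2 of 6 probe sets called. Its change was 0.33 as a mean over probe sets and 0.35 after centring each array on its median, both short of the threshold, and it was also short of it without shCtrl replicate 2 (0.35), epirubicin replicate 2 (0.37) or epirubicin replicate 3 (0.38). The genes SLAMF7 and CD48, named after their values were seen, were not called at 0.24 and -0.06.

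Of 6 measured MHC class I genes that inhibitory NK receptors read, 0 were called, while 4 of the 6 passed limma's p threshold whatever the fold, all upward, against 29.1% of all genes in either direction. Examples, chosen after their values were seen, are HLA-E, the ligand of the inhibitory receptor NKG2A, at 0.21, HLA-B at 0.21 and HLA-C at 0.19 on the log2 scale. Each was read from an _x_at probe set, so signal shared among these related genes cannot be told apart. For HLA-E, 1 of 6 probe sets was called.

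**Figure D5:**
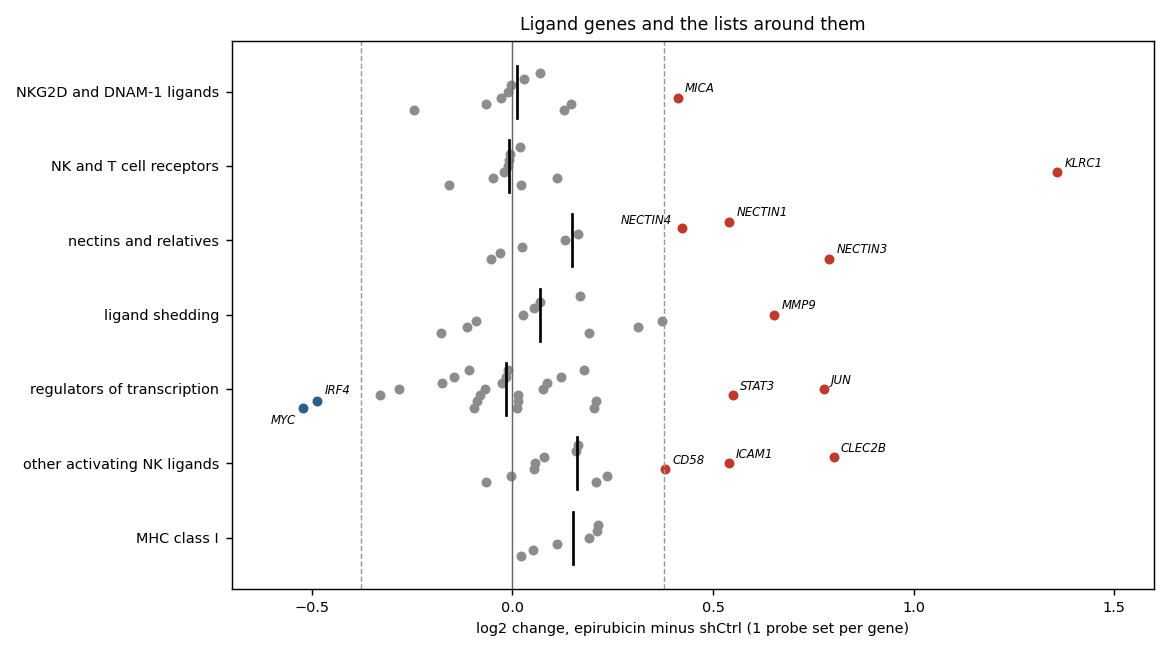
Log2 change (epirubicin minus shCtrl, horizontal axis) of each measured gene of the 10 ligands and of 6 lists around them, red for called higher, blue for called lower, grey for neither, black bars for list medians and dashed lines at a fold of 1.3. MICA is the only called ligand, while 3 nectins and 3 ligands of other activating receptors were called higher.

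NKG2D ligands are also controlled after transcription, by cleavage from the surface. Of 11 measured genes of that step, 1 was higher and 0 lower, against 4.36% and 2.14% of all genes. The count of higher genes was 2 without shCtrl replicate 1, without epirubicin replicate 1 or after quantile normalization, and 0 when dim probe sets were left out. MMP9, a secreted metalloproteinase, had 4.59, 4.82 and 4.95 in epirubicin arrays, against 4.12, 4.14 and 4.14 in shCtrl arrays, a 1.57-fold increase from a dim level (limma adjusted p = 0.00218). ADAM17, a sheddase of MICA and MICB, named after its value was seen, had 7.99, 8.02 and 8.02 in epirubicin arrays, against 7.67, 7.62 and 7.63 in shCtrl arrays. The groups lay apart, and its 1.29-fold difference was just under the fold threshold (limma adjusted p = 0.000367). Its other probe sets differed by 0.29, 0.19 and -0.07 on the log2 scale, and none of its 4 was called. ADAM10, a related sheddase, named likewise, differed by -0.11. TIMP1 (tissue inhibitor of metalloproteinases 1), from the same list and named likewise, was higher by 0.31 (limma adjusted p = 0.00102), short of the fold threshold.

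Of 25 measured regulators that have been linked to transcription of these ligands, 2 were higher and 2 lower, which is 8% each way beside 4.36% and 2.14% of all genes. JUN, a subunit of AP-1, rose 1.71-fold on the brightest of 4 called probe sets, with 9.13, 9.15 and 9.17 in epirubicin arrays, against 8.39, 8.32 and 8.41 in shCtrl arrays. STAT3, a transcription factor of cytokine signalling, rose 1.46-fold. IRF4, a transcription factor of plasma cells, fell by 0.49 on the log2 scale on the brighter of 2 called probe sets. It had 10.75, 10.76 and 10.75 in epirubicin arrays, against 11.27, 11.22 and 11.24 in shCtrl arrays. MYC fell by 0.52. HSF1, which binds heat shock elements, and E2F1, which has been linked to ligand induction by genotoxic drugs in myeloma, were both named after their values were seen and lay at -0.02 and 0.01. The damage kinases ATM and ATR, also named afterwards, lay at 0.09 and -0.28, and neither was called. ATR passed the p threshold (limma adjusted p = 0.00318) but not the fold threshold. At a limma adjusted p under 0.05 whatever the fold, 4 of the 25 regulators were higher and 6 lower, where 2744 and 2362 of 17534 genes were.

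In the same arrays 2 known targets of p53 rose. CDKN1A, which encodes p21, rose 3.68-fold and MDM2, the ubiquitin ligase of p53, rose 2.11-fold (limma adjusted p = 1.15e-06 and 1.37e-05).

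The receptor side was examined because NK or T cells in a culture would carry it. Of 10 measured receptor genes of NK and T cells, 1 was higher and 0 lower, beside 4.36% and 2.14% of all genes. KLRC1, which encodes NKG2A, had 6.41, 6.43 and 6.26 in epirubicin arrays, against 5.17, 4.93 and 4.92 in shCtrl arrays, a 2.56-fold increase (limma adjusted p = 8.95e-05). The KLRC1 probe set, 11732927_x_at, carries a suffix of probes that can match related transcripts. A probe set shared by KLRC1 and KLRC2 rose 3.14-fold, so the increase cannot be assigned to KLRC1 alone. PVRIG, an inhibitory receptor that binds NECTIN2, was read only by a probe set shared with STAG3, which differed by -0.33 with the groups apart, short of the fold threshold (adjusted p = 0.00237 in limma over all probe sets). Of the 10 receptor genes, 3 lay above the median on every array and 3 under the lower quartile on every array. CD226, which encodes DNAM-1 itself and was named after its value was seen, was among the latter and differed by 0.02. TIGIT, named likewise, was among the former, with means of 6.64 in epirubicin arrays and 6.62 in shCtrl arrays. KLRK1, which encodes NKG2D, was read only by 2 probe sets that also name a readthrough gene, and they differed by 0.13 and 0.07. Among 14 markers of T and NK cells limma called 0. At a limma adjusted p under 0.05 (lowest 0.010) 2 were higher, short of the fold threshold, where 2744 of 17534 genes were higher. An unadjusted limma p under 0.05 was reached by 3 of the 14, and by 6901 of all genes. On every array 3 of the 14 lay above the median and 2 under the lower quartile. The mean level of the 14 ran from 4.885 to 4.961 in epirubicin arrays and from 4.856 to 4.880 in shCtrl arrays, without overlap.

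The plasma cell label was borne out by 10 of 12 plasma cell markers, which lay above the median on every array. CD27 and CD38 were the others. Of the 12, CD38 and IRF4 were called lower with epirubicin and 0 higher, against 2.14% and 4.36% of all genes. At a limma adjusted p under 0.05 whatever the fold, 5 were lower and 2 higher, where 2362 and 2744 of 17534 genes were. The mean level of the list ran from 10.47 to 10.49 in epirubicin arrays and from 10.63 to 10.65 in shCtrl arrays. Of 10 myeloid markers 2 were higher with epirubicin, CD68 and S100A9, and 0 lower, against 4.36% and 2.14% of all genes. On every array 5 of the 10 lay under the lower quartile and 2 above the median. The mean level of that list ran from 4.51 to 4.54 in epirubicin arrays and from 4.32 to 4.36 in shCtrl arrays, and its part in the results above was not tested. The marker genes named here were named after their values were seen. Of 9 stromal and 6 epithelial markers 0 were called in limma, against 6.51% of all genes. Their unadjusted limma p was under 0.05 for 2 of each list, and for 6901 of all 17534 genes.

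By root mean square difference of the 6 array values, each gene centred on its own mean, the genes whose pattern was most like that of MICA were LGMN (difference 0.010), AHI1 (0.017), LACTB (0.017), LSS (0.018) and CSNK1G1 (0.018). Their log2 changes lay between 0.41 and 0.43. With 2 groups of 3 arrays this measure mainly finds genes with a change of like size and little spread.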

How the data were processed

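Biotin-labelled cRNA from total RNA had been hybridised to 6 arrays, 3 per group, grouped by sample title. The authors deposited log2 expression values, 1 per probe set and array (47481 probe sets, 1.41 to 13.73, none missing); their range and whole-array medians fit a log2 scale. The submitters' processing notes name the affy package without a version, and background correction, normalization and probe summary are not described in the notes or labels. The 6 array medians ran from 5.52 to 5.57, and nothing more was normalized, so changes are relative to the bulk of transcripts. The number of arrays limits the precision, and signal over background was not known.

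Platform annotation gave 1 symbol to 43976 probe sets, several to 1558 and none to 1947; symbols were updated by Entrez number against RefSeq (GRCh38.p14, 43954 matched). The brightest probe set over the 6 arrays stood for each of 17534 genes. The test was limma (version 3.58.1, lmFit and eBayes with group alone, under R 4.3.3), Benjamini-Hochberg adjusted over all genes or all probe sets; the pipeline was tested on simulated data. Promoter windows came from RefSeq and were searched in python 3.11.15.

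The members, gene lists and rules were chosen with earlier results of these data known. All 10 ligand genes are named, with up to 4 called genes per direction of each of 6 other lists, CDKN1A and MDM2, and the 5 genes nearest to MICA; others are marked as chosen after their values were seen. Some listed genes are not analysed here. Alternatives were another probe set per gene, other normalizations, a filter on dim probe sets, another prior, a replicate block, no fold threshold and leaving out each array.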

Additional observations from a re-analysis of the deposited data

How the results depend on the processing

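The MICA change kept its direction under all 14 alternatives (0.27 to 0.43) and its call under 13; as the mean of probe sets, MICA was not called and the ligand genes called higher numbered 0. With the probe set of largest spread, called the most variable one below, they numbered 2, MICA and ULBP1, and the genes called lower 684. That spread was taken over the arrays of both groups, so it includes the difference between the groups. This choice therefore favours probe sets that differ, and added calls under it are no independent check. Without a fold threshold, 2744 genes were higher and 2362 lower, and 4 ligand probe sets were higher and 3 lower. Leaving out dim probe sets left 1 ligand probe set called higher, and 7 of the 10 ligand genes had no value. Directions turned in uncalled ligand genes. MICB lay at 0.019 after quantile normalization. It kept its direction as the mean of its probe sets (-0.15, limma adjusted p = 0.00509) and on its most variable one (-0.22), both short of the fold threshold. ULBP1 lay at 0.15 as a mean and 0.49 on its most variable probe set. RAET1E lay at 0.013 on its most variable one and RAET1L at -0.0033 after median centring. Leaving out 1 array gave -0.030 to 0.015 for MICB (probe set 11750723_x_at), -0.13 to 0.10 for ULBP1, -0.11 to 0.029 for RAET1E and -0.047 to 0.096 for RAET1L. With no turn of direction it gave 0.087 to 0.23 for PVR, 0.058 to 0.19 for RAET1G, 0.020 to 0.11 for ULBP2, -0.33 to -0.18 for ULBP3 and -0.11 to -0.019 for NECTIN2, and 723 to 807 genes called higher and 363 to 404 lower. The cause of these shifts was not tested. The titles' replicate numbers did not pair arrays (correlations of deviations -0.033 to 0.017); with them as a replicate block 755 genes were called higher, 372 lower, MICA was still called and no other ligand gene was. Signal over background was not known, and background correction could not be varied.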
